A study of Mus musculus with 6 samples.

Results

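The oligoadenylate synthetase (OAS) family was followed across 6 mouse livers through 8 genes, Oas1a, Oas1b, Oas1c, Oas1g, Oas2, Oas3, Oasl1 and Oasl2. They were taken by name from the 41838 genes of the deposited table, in which each symbol had 1 row. The 8 were chosen with the difference between the groups already known, so their group values are given as a description: no p-value is printed for them, and where the fit over all genes called one, nothing is read from the call. Bulk poly(A) RNA sequencing was done on 6 livers, 1 per library. The controls were 3 mice of genotype Alkbh5flox/flox (flox below), and the other 3 were Alkbh5-HKO mice (HKO below), whose genotype label is written Alkbh5-CKO. The series text puts all of them at an age of 9 weeks, while the protocol speaks of 9 weeks on normal chow. The sources used here do not spell out the abbreviations and do not name the driver of the deletion, the sex or the strain.

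OAS enzymes are sensors of double-stranded RNA. When they bind it, the active members join ATP into short 2'-5'-linked oligoadenylates (2-5A), which act as a second messenger of the antiviral response. The genes are classical interferon targets: signals from the interferon receptors activate transcription factors, STAT2 and IRF9 among them, that act on a DNA element known as the interferon-stimulated response element (ISRE). ALKBH5 removes the methyl mark of N6-methyladenosine from RNA.

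All 8 genes lie on chromosome 5 of GRCm38.p6, in 2 groups 5.79 Mb apart. Oasl2 (114896934 to 114912245, plus strand) and Oasl1 (114923177 to 114937912, plus strand) span 41.0 kb. The other group spans 191 kb and holds 10 OAS genes. Its members run from Oas2 (120730333 to 120749874, minus strand) and Oas3 (120753098 to 120777659, minus) over Oas1c (120800194 to 120812540, minus) and Oas1b (120812635 to 120824163, plus) to Oas1g (120876142 to 120887613, minus) and Oas1a (120896256 to 120907544, minus). Oas1e, Oas1f and Oas1h lie among them and Oas1d beyond Oas1a, and these 4 are not members. The deposited table classes Oas1b as a transcribed pseudogene and the other 7 members as protein-coding. No other gene of the table overlapped a member.

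**Figure D1:**
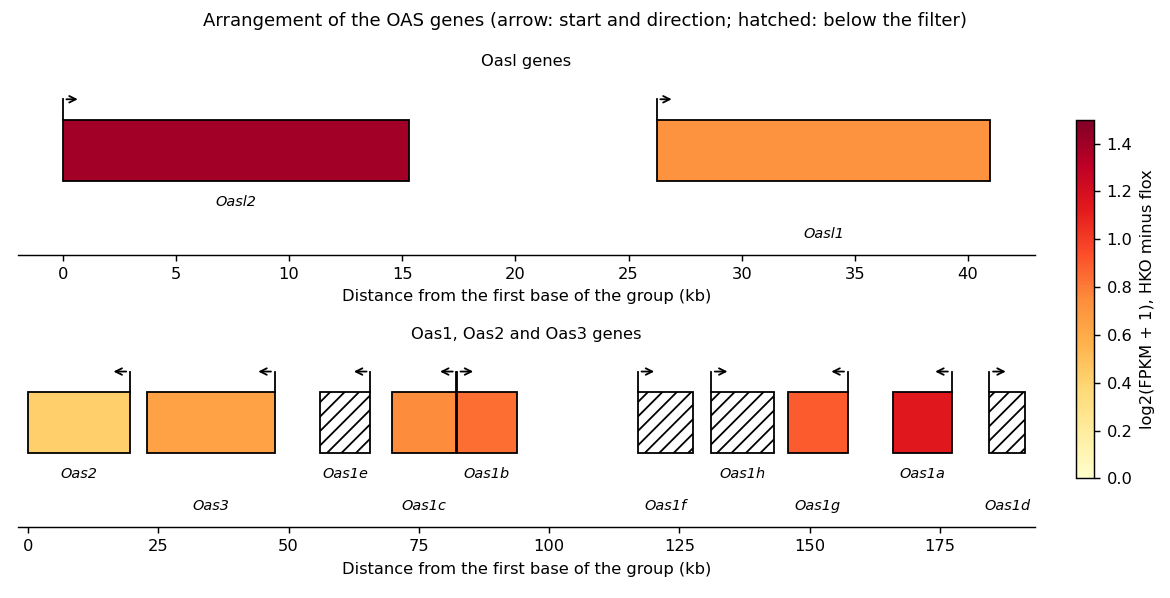
The OAS genes drawn to scale in their 2 groups, with the distance from the first base of each group in kb on the horizontal axis. Arrows mark each start and its direction, colour is the log2(FPKM + 1) difference HKO minus flox, and hatched genes are the 4 non-members, with mean FPKM below 1; Oas1c and Oas1b point away from each other with 94 bases between their starts.

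The starts of 6 members had an entry in the RefSeq promoter table (GRCm38.p6), which covers 250 bases before to 50 after a start; Oas1b and Oas2 had none. The ISRE core was searched as GAAA, any 2 bases and GAAA again, or as its reverse complement, TTTC, any 2 bases and TTTC. It occurred in 4 of these 6 windows, those of Oas1a, Oas1g, Oas1c and Oas3, against 3.44% of all 32851 windows in the table. The following stretches are shown because they carry these matches, which stand in capitals. Each is written 5' to 3' on the strand of the named gene, and Oasl2 is added as the member with the largest difference between the groups.
Oas1a, chr5:120907526-120907625, minus strand: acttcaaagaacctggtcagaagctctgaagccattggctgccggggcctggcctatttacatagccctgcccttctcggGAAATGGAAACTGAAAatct
Oas1g, chr5:120887614-120887713, minus strand: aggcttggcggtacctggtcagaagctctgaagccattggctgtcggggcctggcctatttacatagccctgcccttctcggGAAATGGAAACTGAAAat
Oas1c, chr5:120812541-120812634, minus strand: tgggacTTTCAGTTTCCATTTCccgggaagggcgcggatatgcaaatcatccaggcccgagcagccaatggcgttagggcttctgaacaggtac
Oas3, chr5:120777660-120777759, minus strand: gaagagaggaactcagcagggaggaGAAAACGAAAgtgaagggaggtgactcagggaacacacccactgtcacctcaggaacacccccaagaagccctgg
Oasl2, chr5:114896834-114896933, plus strand: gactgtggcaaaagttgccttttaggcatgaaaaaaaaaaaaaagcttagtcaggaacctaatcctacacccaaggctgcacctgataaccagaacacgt

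Oas1a and Oas1g share a run of 16 bases, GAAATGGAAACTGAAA, in which 2 matches of the core overlap. In Oas1c the same run stands in the opposite direction, as TTTCAGTTTCCATTTC. It lies in the 94 bases between the start of Oas1c and the start of its divergent neighbour Oas1b, 72 bases before the first and 6 bases before the second, counted from the starts in the deposited table. From the RefSeq start of Oas1c, which lies elsewhere and is used in the map of matches, the run begins at -114 and ends at -99. One run thus precedes both starts. The RefSeq starts of Oas1a and Oasl1 also differ from those in the deposited table. There the Oas1a gene reaches 120907544, so nearly all of its run, at 120907530 to 120907545, lies inside the gene. Of all 32851 windows, 7 held these 16 bases in either direction, and they belonged to Oas1a, Oas1c, Oas1g and the apolipoprotein L genes Apol9a and Apol9b. The 100 bases before the RefSeq starts of Oas1a and Oas1g aligned over 88 bases with 98.9% identity. The windows of Oasl1 and Oasl2 did not hold the letters of the core. Among 42 other interferon-stimulated effector genes with an entry, 22 held it in at least 1 window, against 1079 of all 27025 genes. The core of the gamma interferon-activated site (GAS), TTCNNNGAA, which reads the same on both strands, was found in Oas1a alone among these members and in 8.3% of all windows. These matches describe the letters of the windows and say nothing of what binds there.

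**Figure D2:**
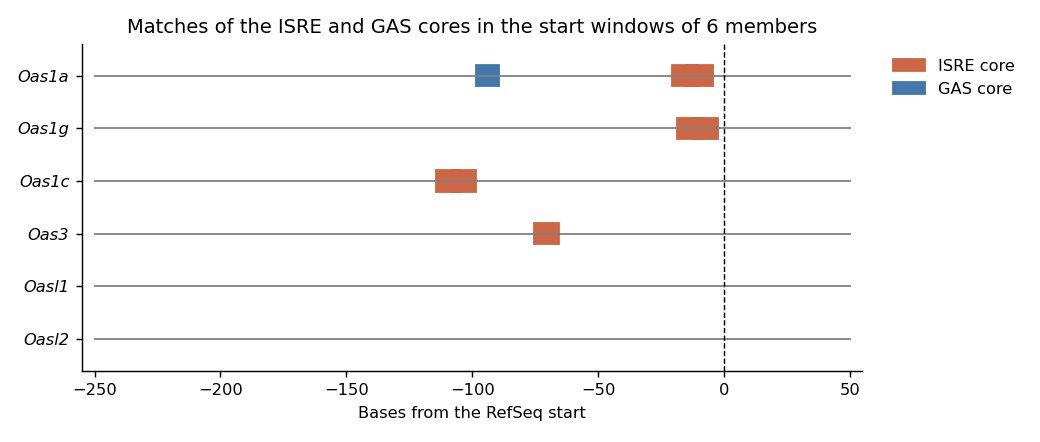
Matches of the ISRE core (red) and GAS core (blue) in the windows of the 6 members with a RefSeq promoter entry; the horizontal axis is the distance in bases from the RefSeq start, marked by the dashed line. ISRE matches stand just before the RefSeq starts of Oas1a and Oas1g and farther upstream in Oas3 and Oas1c, and the lines of Oasl1 and Oasl2 are empty.

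Levels are the authors' FPKM (fragment counts divided by gene length and by library size), with 1 value per library; they correct for length, so members can be set side by side. The depth recovered from these values was 14907384 to 17034754 reads per library. Alkbh5 checked the labels: it was at 17.8, 16.8 and 14.8 FPKM in flox and at 0.508, 0.443 and 0.476 FPKM in HKO. All 10 hepatocyte markers, albumin among them, were above the filter of a mean FPKM of 1, and their sums overlapped between the groups. Albumin was the largest part of the sum. Every HKO liver lay above every flox liver for albumin (means 28517 in flox and 36341 FPKM in HKO) and below for Apoa1 (10724 and 6822 FPKM). Of all genes above the filter, 12.8% and 12.6% were separated in these directions. On the first principal component (44.0% of the variance) HKO library 1 lay farthest from the flox libraries, at 38.6 against 15.7 and 4.51 for HKO libraries 2 and 3.

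The summed level of the 8 members was 16.03, 14.2 and 14.7 FPKM in flox livers 1 to 3 and 38.5, 33.8 and 30.7 FPKM in HKO livers 1 to 3. Every HKO liver lay above every flox liver. The means were 15.01 ± 0.924 and 34.3 ± 3.92 FPKM (SD, n = 3), a ratio of 2.29. In each single member, too, the lowest HKO liver lay above the highest flox liver. Over all 10453 genes that reached the filter, the groups were separated in this direction in 12.8%; because the members were chosen on this contrast, nothing is read from the comparison. All 8 members passed that filter, 3 of them (Oas1c, Oas1g and Oas3) with a flox mean below 1, that is, through their HKO values. The median log2(FPKM + 1) difference, HKO minus flox, was 0.80 over the members and -0.02 over all tested genes. In bulk liver, more cells of a type and more RNA per cell cannot be told apart. Summed markers of T and NK cells were also separated between the groups, and so were some monocyte markers; their values are given with the other cell types, and their part in the OAS values was not tested.

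**Figure D3:**
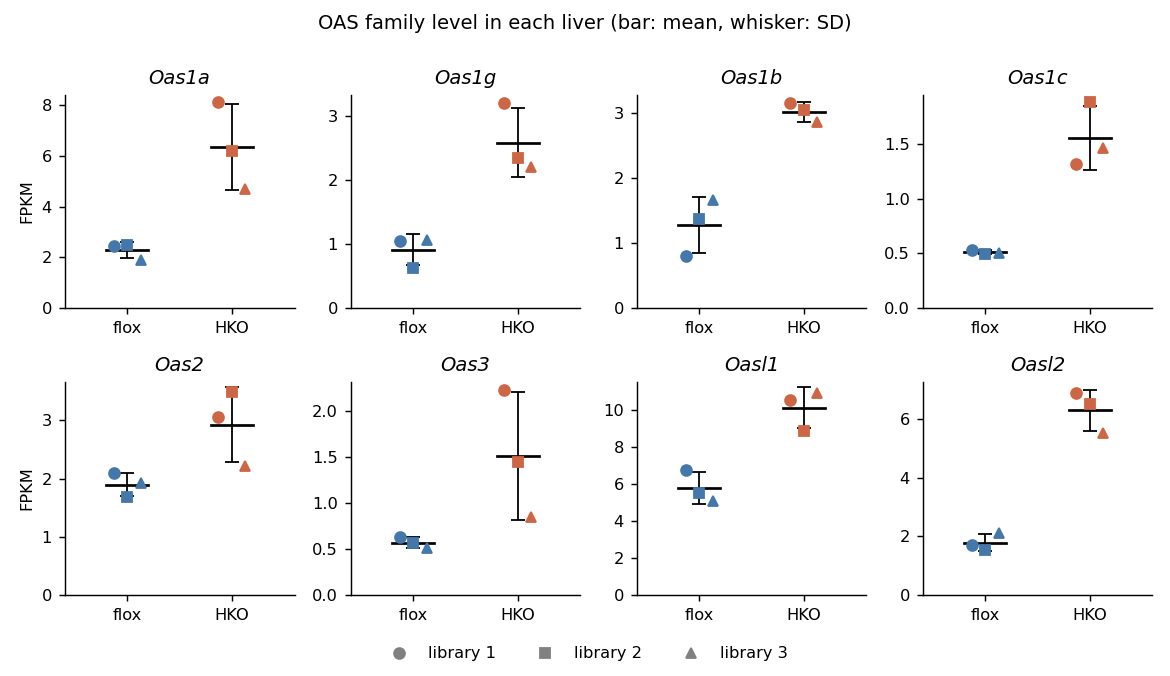
FPKM of each member (vertical axes, from 0) in 3 flox and 3 HKO livers; each symbol is 1 library, bars are means and whiskers SD. HKO points lie above all flox points in each panel, by the least in Oas2, and the spread of HKO points is widest relative to the mean in Oas3.

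Oas1a and Oas1g are the paralogs of the mouse Oas1 cluster that are known to make 2-5A. Oas1a was at 2.46, 2.47 and 1.91 FPKM in flox livers 1 to 3 and at 8.10, 6.21 and 4.71 FPKM in the HKO livers. HKO liver 1 was the highest and HKO liver 3 the lowest of its group, still 1.91 times the highest flox liver. The mean went from 2.28 ± 0.321 to 6.34 ± 1.70 FPKM, a 2.78-fold difference (log2 1.14, SE 0.19). Oas1g was lower throughout, at 1.05, 0.626 and 1.06 FPKM in flox and 3.20, 2.35 and 2.19 FPKM in HKO. Its libraries stood in the same order within HKO as those of Oas1a, and the fold difference of the means was 2.83 (log2 0.90, SE 0.17). The transcripts of the pair are 97.5% identical over 1860 aligned bases. Of the 150-base windows of the Oas1a transcript in GENCODE M21, 32.4% occur unchanged in Oas1g, and 30.1% of those of Oas1g occur in Oas1a. Since the sources used here do not say how reads with several matches were treated, the division of reads between these paralogs is uncertain.

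Oas1b and Oas1c are the divergent pair. Oas1b is known for its role in resistance to flaviviruses, and the reference strain carries a disrupted form of the gene. Its flox livers were at 0.808, 1.37 and 1.66 FPKM, and its HKO livers at 3.16, 3.05 and 2.86 FPKM. The flox livers were spread widely, with liver 1 lowest, and the HKO livers lay close together above them. The means were 1.28 ± 0.432 and 3.02 ± 0.149 FPKM, a 2.36-fold difference (log2 0.84, SE 0.17). Oas1c, a paralog without known 2-5A synthesis, was at 0.535, 0.497 and 0.501 FPKM in flox and at 1.32, 1.88 and 1.47 FPKM in HKO. The fold difference was 3.05 (log2 0.75, SE 0.14), and here HKO liver 1 was the lowest of its group, unlike in Oas1b. No 150-base window of Oas1b was shared with another gene, and 2.24% of those of Oas1c were. In windows of 50 bases the share was 16.3% for Oas1c, with Oas1d, Oas1e, Oas1f and Oas1h among the genes that share them.

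Oas1c had few reads: 20, 16 and 19 in flox and 49, 80 and 51 in HKO. Counting error alone would give its flox libraries a coefficient of variation near 23.4%, while the one observed was 4.09%. The 3 flox livers thus lay closer together than counting error of this size gives on average. Oas1b had 24, 35 and 50 reads in flox and 93, 103 and 79 in HKO, with an observed variation of 4.93% in HKO where counting alone gives 10.4%.

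Oas2 and Oas3 encode larger enzymes built from repeated OAS units. Oas2 was at 2.09, 1.68 and 1.92 FPKM in flox and at 3.06, 3.49 and 2.22 FPKM in HKO. HKO liver 3 was just 1.06 times the highest flox liver, the narrowest gap among the members. The 1.54-fold difference of the means (1.90 ± 0.204 and 2.93 ± 0.644 FPKM, log2 0.43, SE 0.16) was the smallest of the 8. Oas3, the longest of the OAS enzymes, was at 0.631, 0.565 and 0.518 FPKM in flox. In HKO it was at 2.24, 1.44 and 0.848 FPKM. Relative to their mean the HKO livers were the most spread of any member, with liver 1 highest, and liver 3 lay 1.35 times above the highest flox liver. Oas3 had 169, 125 and 60 reads in these 3 livers. Its variation there was 46.2%, against 9.21% from counting alone. The difference of the means was 2.65-fold (log2 0.64, SE 0.21).

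Oasl1 and Oasl2 encode OAS-like proteins with ubiquitin-like domains at their carboxyl end. Oasl1 does not make 2-5A and is known to restrain the translation of Irf7 messenger RNA. It was the most abundant member in every library, at 6.76, 5.50 and 5.07 FPKM in flox and 10.6, 8.86 and 10.9 FPKM in HKO. HKO liver 3, the lowest of its group in 6 of the 8 members, was the highest here. The means of 5.77 ± 0.879 and 10.1 ± 1.10 FPKM differed 1.75-fold (log2 0.72, SE 0.15).

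Oasl2, which retains 2-5A synthesis, was at 1.70, 1.54 and 2.10 FPKM in flox and at 6.87, 6.50 and 5.51 FPKM in HKO. The lowest HKO liver was 2.62 times the highest flox liver, the widest gap of any member. The means of 1.78 ± 0.291 and 6.29 ± 0.706 FPKM differed 3.54-fold (log2 1.39, SE 0.14), the largest difference on both scales. No 150-base window of Oasl1 or Oasl2 was shared with another gene. In the fit over all genes Oasl2 was the 1 member called higher by limma with BH adjustment at 0.05, where 0.268% of all tested genes were; 0 members were called lower, against 0.22% of all tested genes. The contrast had been used to choose the members, so the call is not evidence for them. It was also lost without flox library 1, flox library 2, HKO library 1 or HKO library 2. Without HKO library 3, Oas1a was called as well.

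The order of the differences depended on the scale. By the ratio of mean FPKM it ran from Oasl2 (3.54) and Oas1c (3.05) to Oasl1 (1.75) and Oas2 (1.54). On the log2(FPKM + 1) scale, which shrinks genes of low level, Oas1c fell behind Oas1a, Oas1g and Oas1b. All 8 differences stayed above 0 in every alternative, and the separation of the groups held for all 8 members after quantile normalization, as TPM and after rescaling to the sum of reads. Several alternatives leave these differences unchanged by construction. With 1 library left out, the log2 difference was 1.33 to 1.47 for Oasl2 and 0.97 to 1.31 for Oas1a. It was 0.32 to 0.56 for Oas2 and 0.44 to 0.84 for Oas3, the lower ends of the family.

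Within each group the order of levels was headed by Oasl1, whose range did not overlap that of Oas1a, the next. In flox, each further neighbour in the order Oas1a, Oas2, Oasl2, Oas1b, Oas1g, Oas3 and Oas1c overlapped the next. In HKO, Oas1a (6.34 FPKM) and Oasl2 (6.29 FPKM) overlapped each other and lay clear of Oas1b (3.02 FPKM), Oas2 and Oas1g, which overlapped in turn. Oas1c (1.56 FPKM) and Oas3 (1.51 FPKM) closed the order and overlapped. Oasl2 held 10.6%, 10.8% and 14.3% of the summed FPKM in flox livers and 17.8%, 19.2% and 17.9% in HKO livers. Oas2 held 13.03%, 11.8% and 13.02% in flox and 7.95%, 10.3% and 7.23% in the HKO livers. The shares of Oasl2 and Oas2 thus did not overlap between the groups, while those of every other member did. Oasl2 and Oas2 are also the members with the largest and the smallest ratio of means. Oasl1 kept the largest share, 34.4% to 42.1% in flox and 26.2% to 35.5% in HKO.

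**Figure D4:**
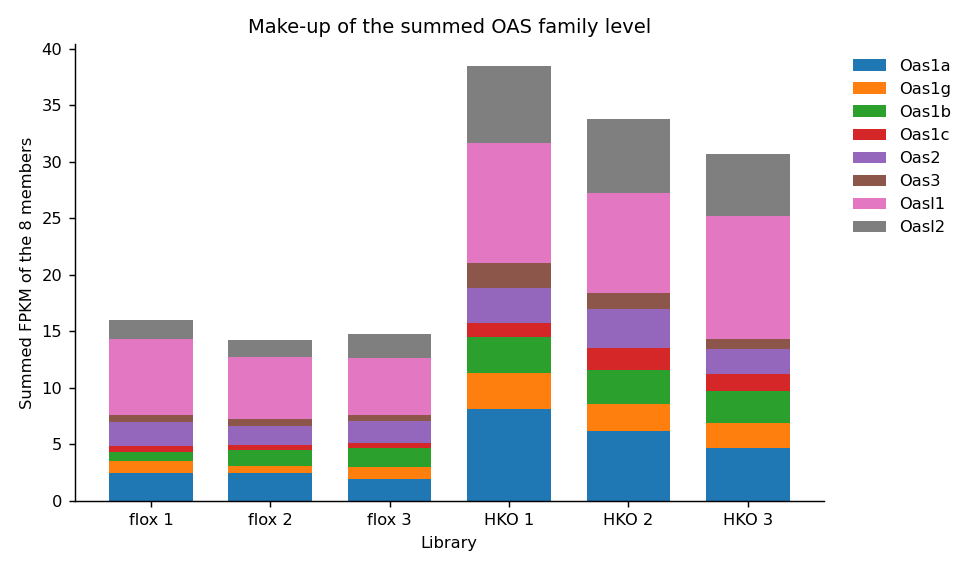
Summed FPKM of the 8 members (vertical axis) in each library (horizontal axis), with each member's part stacked in its own colour. The HKO columns reach 30.7 to 38.5 FPKM and the flox columns 14.2 to 16.03 FPKM, and the Oasl2 part at the top is taller in HKO.

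The livers of the HKO group were not alike across the family. HKO liver 1 was highest in 5 members, HKO liver 2 in Oas1c and Oas2, and HKO liver 3 in Oasl1. HKO liver 3 was lowest in 6 members. Among 43 other interferon-stimulated effector genes above the filter, HKO liver 1 was highest in 24 and HKO liver 3 lowest in 25.

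The 4 remaining OAS paralogs were at or near 0. Oas1d and Oas1f were listed at 0 in all 6 libraries, and Oas1e had a value in HKO library 1 alone, 0.0286 FPKM. Oas1h was at 0, 0.0423 and 0.0717 FPKM in flox and 0.183, 0.0641 and 0.0784 FPKM in HKO, with overlapping groups. None was tested. The protein-coding neighbours within 100 kb of a member that are not OAS genes numbered 11, of which 4 were above the filter. Their log2 differences ran from -0.70 to 0.04. By limma with BH adjustment 0 of the 4 were called, 1 was at an unadjusted p below 0.05, and voom called 0.

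The rest of the 2-5A pathway was described through Abce1 and the enzymes that degrade 2-5A. Abce1, which encodes a ribosome recycling factor, was at 19.3 ± 3.67 and 16.4 ± 2.65 FPKM (log2 -0.22, limma BH adjusted p = 0.576). The 2-5A phosphodiesterase Akap7 was at 0.896 ± 0.151 and 1.22 ± 0.0295 FPKM (log2 0.23, limma BH adjusted p = 0.403), with no overlap between the groups. It passed the filter only through its HKO values, and 12.8% of all tested genes were separated in this direction. Pde12, another enzyme that degrades 2-5A, was listed at 0.0259 to 0.0351 FPKM in flox and at 0 to 0.00773 FPKM in HKO and was not tested. Of the 2 tested genes of this list, limma and voom called 0, and 0 had an unadjusted p below 0.05.

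Other genes of RNA sensing were tested as a list of 15, which holds receptors of foreign RNA together with their adaptors, kinases and ubiquitin ligases, and 14 passed the filter. Tlr3, with a flox mean of 0.778 FPKM, passed only through its HKO values. By mean, 10 were higher and 4 lower in HKO (median log2 0.35 against -0.02 over all tested genes), and in 8 the HKO livers lay above all flox livers. Over all 10453 tested genes 12.8% were separated in that direction. By limma with BH adjustment 0 of the list were called. An unadjusted p below 0.05 was found for 7, against 1778 of all tested genes, and voom called 1, against 71. Of 18 tested genes of interferon signalling, 12 were higher and 6 lower by mean (median log2 0.19). In 5 the HKO livers lay above all flox livers and in 1 below, against 12.8% and 12.6% of all tested genes. An unadjusted p below 0.05 was found for 4, and voom called 3. Irf7 alone was called by limma with BH adjustment, where 0.268% of all tested genes were called higher. Irf7, a transcription factor that amplifies interferon production, rose from 25.5 ± 1.35 to 57.3 ± 7.35 FPKM (log2 1.13, limma BH adjusted p = 0.0372). Its call was lost without flox library 1, flox library 2, HKO library 1 or HKO library 2.

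Of the factors that act on the ISRE, Stat2 and Irf9 were not called. Stat2 was at 18.0, 21.9 and 23.9 FPKM in flox and at 28.1, 27.4 and 22.3 FPKM in HKO, and the groups overlapped (log2 0.27, limma BH adjusted p = 0.422). Irf9 was at 15.7 ± 1.86 and 19.4 ± 2.84 FPKM (log2 0.28, limma BH adjusted p = 0.395). HKO liver 1 was the highest of the 6 for both. Usp18, which restrains the interferon receptor, was at 12.1 ± 1.37 and 35.7 ± 11.6 FPKM (log2 1.44, limma BH adjusted p = 0.0525). Of 20 interferon genes, 17 were listed at 0 in all libraries, Ifnb1 among them, and the whole list summed to at most 0.278 FPKM in flox and 0.299 FPKM in HKO. None was tested.

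Of 54 other interferon-stimulated effectors, 43 passed the filter, and 42 of these had a higher mean in HKO (median log2 0.99). In 39 the HKO livers lay above all flox livers, against 12.8% of all tested genes. Ifit2 and Psmb8, with flox means of 0.707 and 0.0909 FPKM, passed the filter only through their HKO values. By limma with BH adjustment 5 rose, at a background of 0.268% over all tested genes, and 0 fell; voom called 10, against 71 of all tested genes. Gbp3, a guanylate-binding protein, rose from 2.59 ± 0.328 to 12.7 ± 3.42 FPKM (log2 1.90, limma BH adjusted p = 0.0298). Rtp4 (log2 1.37) and Ifi44 (log2 2.51) rose with limma BH adjusted p-values of 0.0372 and 0.0373. Apol9a and Apol9b, which share the 16-base run with Oas1a, were at 35.9 ± 4.04 and 73.7 ± 9.68 FPKM and at 64.2 ± 2.99 and 116 ± 19.6 FPKM (2.05-fold and 1.81-fold, limma BH adjusted p = 0.0525 and 0.0751). They were singled out for that run. The 5 calls became 0 without flox library 1, flox library 2 or HKO library 2, 1 without HKO library 1 and 2 without flox library 3. The list was put together with the response of this gene class in these livers known, so its direction is not independent evidence.

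**Figure D5:**
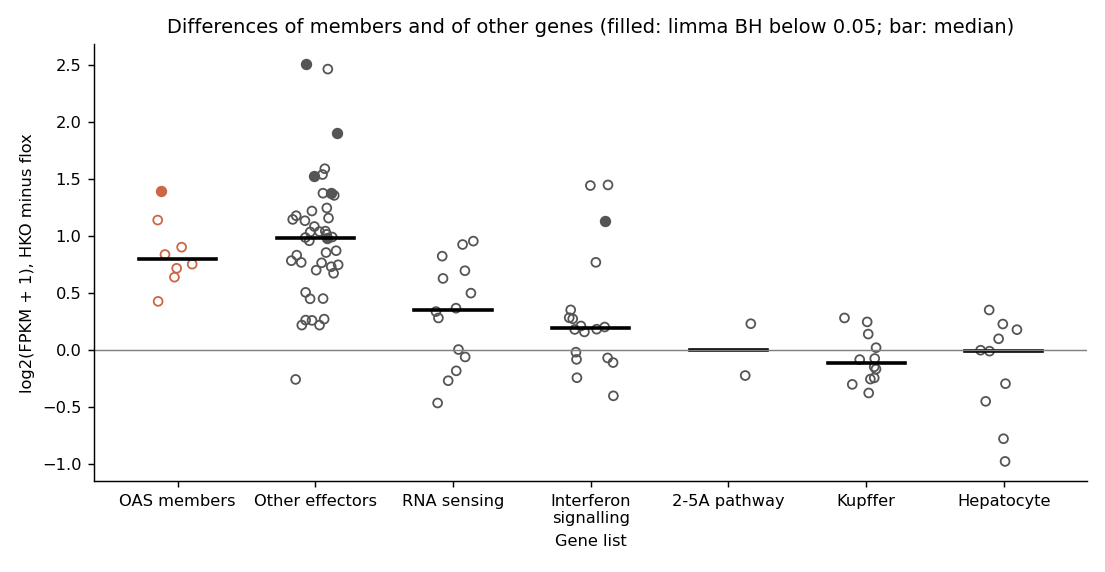
Difference of log2(FPKM + 1), HKO minus flox (vertical axis), for the 8 members and for the tested genes of 6 other lists (horizontal axis); each point is 1 gene, filled where limma with BH adjustment gave less than 0.05, and bars are medians. All members lie above 0, as do 42 of 43 other effectors, while the Kupffer cell and hepatocyte points lie on both sides of 0.

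The genes whose profile over the 6 libraries was most like the summed OAS level were Parp12, Ube2l6, Ddx60, Pir, Ces1g and Sc5d, in that order. Likeness was the root mean square difference between the profiles of log2(value + 1), each centred on its own mean. It was 0.0785 for Parp12, 0.101 for Ube2l6, 0.116 for Ddx60, 0.131 for Pir, 0.133 for Ces1g and 0.136 for Sc5d. The median over 9404 protein-coding genes was 0.611. As the 6 were picked for the smallest distances, their place below this median was fixed in advance. The summed profile carries the group difference on which the members were chosen, and the log2 differences of the 6 ran from 0.94 to 1.04. Nothing is therefore read from their likeness. Parp12 (10.1 ± 0.723 and 21.1 ± 2.17 FPKM) and Ube2l6 (41.2 ± 1.29 and 86.3 ± 15.7 FPKM) were on the list of effectors. The other 4 were on none of the lists. They comprise the helicase Ddx60, Pir, the carboxylesterase Ces1g and Sc5d, an enzyme of cholesterol synthesis. Ddx60, with a flox mean of 0.725 FPKM, passed the filter only through its HKO values. Among the members themselves the distance to the sum was smallest for Oas1a (0.135) and largest for Oas2 (0.374), and 433 other genes lay nearer than Oas2. Each member is itself a part of that sum.

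Markers of other liver cells were summed for each library. Kupffer cell markers summed to 205 to 311 FPKM in flox and 209 to 376 FPKM in HKO, and 4 of the 12 were higher by mean. The 13 T and NK cell markers summed to 3.18 to 4.84 FPKM in flox and 6.99 to 10.5 FPKM in HKO, with no overlap. Within that list 3 passed the filter, Gzma, Nkg7 and Ptprc, and all 3 had a higher mean in HKO. Gzma and Nkg7, with flox means of 0.624 and 0.723 FPKM, passed only through their HKO values, so the filter fixed their direction. In 4 of the 13 every HKO liver lay above every flox liver: Gzma, Nkg7, Gzmb and Cd8b1. Over all tested genes 12.8% were separated in this direction, but Gzmb and Cd8b1 were below the filter and not tested. Nkg7 was at 0.534, 0.885 and 0.751 FPKM in flox and 1.38, 1.48 and 1.31 FPKM in the HKO livers. Gzmb was at 0.175, 0.254 and 0.344 FPKM and at 0.661, 1.54 and 0.941 FPKM, and Cd8b1 did not exceed 0.132 FPKM. Cd8b1 had 0, 1 and 0 reads in flox and 3, 2 and 2 in HKO. The other 9 overlapped between the groups, the T cell receptor complex genes Cd3d, Cd3e and Cd3g among them, at 0.683 FPKM or below, and Cd2 was listed at 0 in 5 libraries. Gzma was at 0.988, 0.328 and 0.556 FPKM in flox and 2.56, 3.23 and 1.67 FPKM in HKO. Stellate cell markers summed to 28.8 to 53.3 and 52.7 to 64.6 FPKM. The 10 recruited monocyte markers summed to 28.7 to 53.9 and 36.4 to 46.5 FPKM, a sum made up mostly of Lyz2. Of the 3 that passed the filter 2 were separated, against 12.8% of all tested genes in this direction. By limma 0 were called, voom called 1, and 2 had an unadjusted p below 0.05. Both separated genes, Ly6c2 and Plac8, passed only through their HKO values, with flox means of 0.506 and 0.980 FPKM. Ly6c2, singled out after its values were seen, was at 0.730, 0.462 and 0.327 FPKM in flox and 3.41, 3.39 and 0.857 FPKM in HKO, and Plac8 at 0.940, 0.659 and 1.34 FPKM and 4.21, 4.39 and 2.75 FPKM. Below the filter and not tested, Ccr2 and Ms4a4c also had every HKO liver above every flox liver. Ccr2 was at 0.156, 0.218 and 0.262 FPKM in flox and 0.283, 0.371 and 0.403 FPKM in HKO. Ms4a4c was at 0.135, 0.0262 and 0.111 FPKM and at 1.18, 0.535 and 0.218 FPKM. Chil3, F13a1 and S100a4, also below the filter, had a higher mean in HKO with overlapping groups. The remaining markers of this list had a lower mean in HKO, with overlapping groups. These were Lyz2 (40.2 in flox and 32.4 FPKM in HKO), Itgam (0.214 and 0.138 FPKM) and Cx3cr1 (0.0974 and 0.0638 FPKM). Neutrophil markers summed to 0.892 to 9.98 and 2.62 to 3.53 FPKM. Markers of plasmacytoid dendritic cells, a main source of type I interferon, summed to 0.554 to 0.606 and 0.565 to 1.23 FPKM, with Pacsin1 at 0 throughout. B and plasma cell markers were at 2.36 to 4.99 and 2.07 to 5.05 FPKM and sinusoidal endothelial markers at 27.2 to 36.8 and 30.1 to 32.0 FPKM. The part of T, NK and monocyte cells in the OAS values was not tested.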

How the data were processed

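Poly(A) RNA of 6 livers was sequenced in read pairs, per the labels' protocols. Per the submitters' processing notes and the series text, reads were aligned to GRCm38.p6 with HISAT2 2.0.5 and counted with featureCounts 1.5.0-p3; the authors also list DESeq2 1.20.0 and CASAVA. The sources used here do not give the strand setting or the treatment of multiple matches. The authors deposited FPKM per library. In each library 100% of FPKM times gene length were whole multiples of 1 step (tolerance 0.001), which gave reads; median-of-ratios size factors of the FPKM were 1 in each library.

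Genes whose mean FPKM reached 1 were tested with limma 3.58.1 (R 4.3.3, trend and robust) on log2(FPKM + 1), with Benjamini-Hochberg (BH) adjustment at 0.05 over 10453 genes. The labels speak of biological replicates. The code was tested on simulated reads. Python 3.11.15, Biopython 1.88 and matplotlib 3.10.9 served sequences and figures. Protein identity was planned and not computed; transcripts were aligned locally instead, and windows of 150 bases compared exactly. Members, 15 lists and rules were chosen with earlier results of these data known. Named genes were the members, the other OAS and 2-5A genes, Alkbh5, fixed interferon factors, up to 3 called genes of each other pathway list by smallest p, and the 6 most alike; genes beyond these were singled out after their values were seen. Some genes of the rule are not reported here.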

Additional observations from a re-analysis of the deposited data

How the results depend on the processing

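Alternatives changed 1 choice at a time, except that voom scaled to the summed reads changed both the model and the scaling; both settings that use the sum of reads were added with the data already seen. The median log2 difference of the members, 0.80, became 1.32 with a pseudocount of 0.1, 0.36 with 5, 1.08 as TPM, 1.38 by voom and 1.45 by voom scaled to the summed reads, and 0.77 to 0.85 with a library left out. Of the single members' log2 differences under the alternatives, 113 moved by less than 1 SD and 31 by more, and 0 changed sign. These counts overstate stability. Both changed filters, median-of-ratios scaling, the fit without trend and robust, and the replicate block leave these differences unchanged by construction. As the groups did not overlap, another pseudocount or a left-out library could not reverse a sign. Genes called higher (28) became 18 with a pseudocount of 0.1, 0 with no filter, 78 by voom on the sum of reads and 0 to 29 with a library left out; lower ones (23) became 1 with no filter, 42 by voom on the sum and 1 to 41 with a library left out. Of the calls 54.9% were higher, 65.0% by voom on the sum, 11.1% with the replicate block, 0% with no filter and 0% to 41.4% with a library left out. Effectors called (5) became 0 with no filter, 10 by voom, 15 by voom on the sum and 0 to 5 with a library left out. Interferon signalling genes called (1) became 0 with no filter, 3 with a mean FPKM of at least 5, 3 by voom, 2 on the sum of reads, 3 by voom on the sum and 0 to 2 with a library left out. RNA sensing genes called (0) became 1 with a mean FPKM of at least 5, by voom and by voom on the sum. With no filter 23371 genes were tested and 2514 had an unadjusted p below 0.05. Fits without a library have fewer samples; for the others the cause was not tested. The deviations of same-numbered libraries from their group means correlated at 0.153, -0.145 and -0.0514. Such correlations over genes cannot show whether these libraries share more than a number. With the replicate block limma called 1 higher and 8 lower genes, 0 of the effectors and 0 of interferon signalling, with 1585 genes at an unadjusted p below 0.05; Oasl2 was not called there or with no filter. Depth limits Oas1c most, with 55 reads over the flox libraries.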
